A study of Mus musculus with 24 samples.

Results

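The saline-treated control mice of a pilocarpine epilepsy study are described here, as 9 of the 24 RNA-seq libraries made from microdissected hippocampal CA1 tissue. Members were taken by their labels: treatment with saline in place of pilocarpine and a time of 12 h, 36 h or 72 h, with 3 libraries each (Ctr 12 h, Ctr 36 h and Ctr 72 h). The other 15 libraries came from mice that had gone through status epilepticus (SE) and serve here for comparison and, in the fits between control times, to estimate the gene filter, the spread and the factor of unwanted variation. All 9 control libraries came from C57Bl/6N mice from Charles River, at least 60 days old and weighing at least 20 g. Every control also carried the drugs that surround SE induction, namely 1 mg/kg scopolamine methyl nitrate, a muscarinic blocker, and 4 mg/kg diazepam, a positive modulator of GABA-A receptors, so the baseline below is that of drug-exposed and not of naive mice. The titles call the same libraries untreated. No sex is given, and nothing states whether a library came from 1 animal or a pool, so the spread between libraries may be partly technical.

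CA1 is the output field of the hippocampal trisynaptic circuit. Its principal cells are glutamatergic pyramidal neurons, whose excitability is set by AMPA, NMDA and GABA-A receptors and by dendritic HCN and A-type (Kv4) channels, and which are surrounded by interneurons, astrocytes, oligodendrocytes and microglia. Neighbouring fields (CA2, CA3, dentate gyrus, subiculum) have their own marker genes, so the purity of a dissection can be read from the transcriptome. Fewer cells of a type and less RNA per cell cannot be told apart in bulk tissue.

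The libraries differed in depth. Total counts per library were 10651808, 14138399 and 27648010 in Ctr 12 h, 14512266, 20063548 and 12619488 in Ctr 36 h, and 11680209, 5793721 and 2663936 in Ctr 72 h. The Ctr 72 h group thus held the 2 shallowest libraries, replicates 2 and 3. Of the 18647 genes in the deposited table, 17916 to 18365 had a count in the other 7 libraries, against 15999 in Ctr 72 h replicate 2 and 16486 in the shallower Ctr 72 h replicate 3. A count of 0 allows a level of up to 1.12 CPM (counts scaled to library size) in the shallowest library, taken as 3 counts and covering counting error only.

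Ctr 72 h replicate 2, whose column carries the label number 168, stood apart from every other control before any comparison was made. Its log2 CPM values correlated with those of the other 8 controls at r = 0.888 to 0.909 across genes, whereas Ctr 72 h replicate 3 correlated with the other 7 at 0.943 to 0.95 and those 7 with each other at 0.974 to 0.991 (genes are not independent replicates). In a principal component analysis of 10754 genes the first component held 50.3% of the variance and scored 167 in this library against -27.4 to -2.57 in the rest. The second component, 22.6% of the variance, scored 112 in Ctr 72 h replicate 3 and -22.1 to -6.54 in the others. Fold changes and calls that rest on Ctr 72 h are therefore given with and without replicate 2, while mean levels are over all 9 libraries unless stated.

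**Figure D1:**
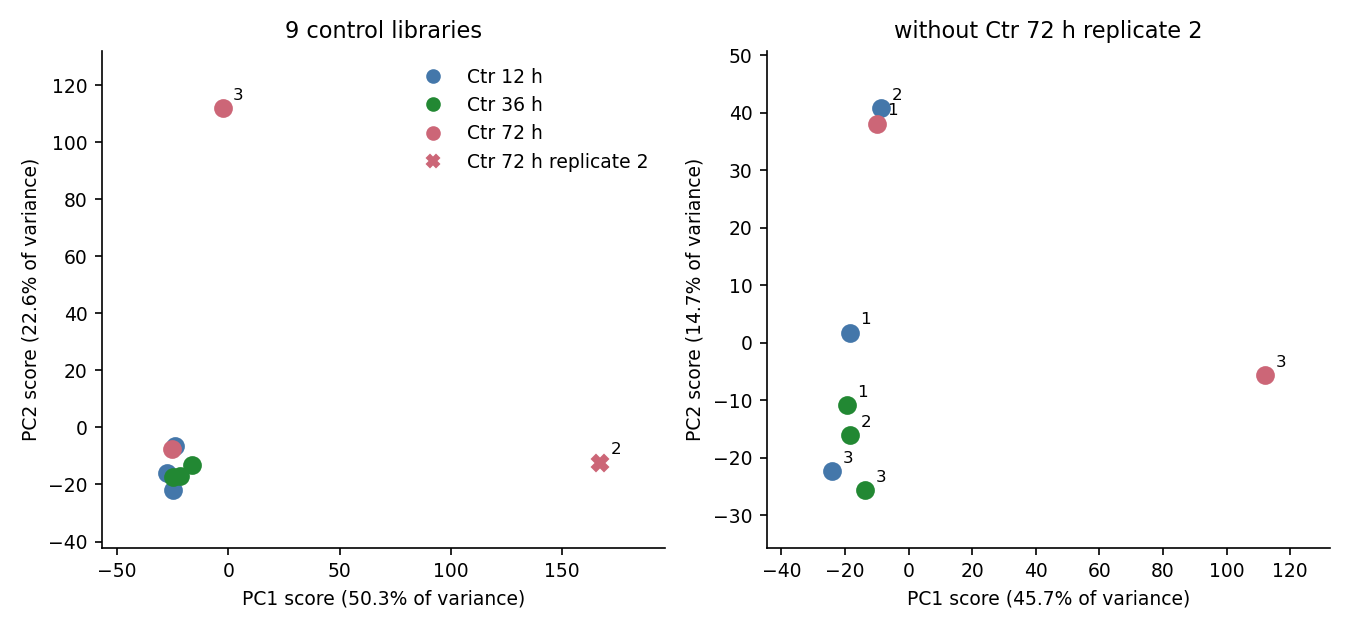
Scores on the first and second principal components of log2 CPM, for the 9 control libraries (left) and for 8 of them (right), one point per library coloured by group, with digits giving the replicate number (in the left panel only for the libraries far from the rest). Ctr 72 h replicate 2 (cross) scored 167 on the first axis of the left panel, and without it Ctr 72 h replicate 3 scored 112 on the first axis of the right panel.

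Markers of peripheral sensory ganglia and nerves stood high in Ctr 72 h replicate 2. All 14 listed markers of sensory ganglion neurons had their highest control value in this library. Their summed level was 1790 CPM, against 6.63 to 76.4 CPM in the other 8 controls, and 134-fold above the median of those 8. Scn10a, the sodium channel of nociceptors, stood at 354 CPM in this library, at 12 CPM in Ctr 72 h replicate 3 and at 0.0844 to 8.95 CPM elsewhere. Prph, the intermediate filament of peripheral neurons and the most abundant gene of the list, stood at 351 CPM against at most 18.4 CPM. The neuropeptide gene Calca was counted at 271 CPM against at most 9.74 CPM, and Avil, which encodes an actin-binding protein of sensory neurons, at 266 CPM against at most 8.62 CPM.

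Schwann cell genes stood high in the same library, with 6 of the 7 measured markers at their control maximum and a summed level of 924 CPM against 29.2 to 69.7 CPM, 23.5-fold above the median of the others. Pmp22, a peripheral myelin protein and the most abundant gene of this list, was at 420 CPM against 12.1 to 32.2 CPM. Ctr 36 h replicate 3 and Ctr 72 h replicate 3 were also the next highest for the sensory ganglion sum, at 54.7 and 76.4 CPM. These sums were not confined to saline controls: among the 15 SE libraries the sensory ganglion sum ran from 10 to 945 CPM with a median of 16.8 CPM, and the highest was SE 72 h replicate 1, which also had the highest Schwann sum of the SE libraries (629 CPM).

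Without a preset list, 158 genes, 135 of them protein coding, were at least 8-fold higher in Ctr 72 h replicate 2 than in every other control. The most abundant were Nefh, a heavy neurofilament subunit, at 953 CPM against 59.6 to 105 CPM, Prune2 at 887 CPM against 73 to 101 CPM, and Fstl1 at 884 CPM against 50.1 to 80.2 CPM. Only 6 genes met the same rule in Ctr 12 h replicate 3, led by Ccbe1 (61.7 CPM against 0.17 to 3.82 CPM), and 1 in Ctr 72 h replicate 3, the small cytoplasmic RNA gene Rny1. The remaining 6 libraries had none.

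The 14 measured Hox genes, which pattern the body axis behind the forebrain and were examined after the values were seen, summed to 318 counts (54.2 CPM) in Ctr 72 h replicate 2, where all 14 were counted. They summed to 31 counts in Ctr 36 h replicate 3, 8 in Ctr 72 h replicate 3 and 0 to 6 in the others. Only Hox genes present in the deposited table are covered. Hoxb7, Hoxd8 and Hoxd9 had no count in any other control, so their presence among the 14 may rest on this library or on SE libraries. Xist, the RNA of the inactive X chromosome, reached 77 CPM in Ctr 72 h replicate 2 and at most 4.27 CPM elsewhere, while the Y-linked Ddx3y and Eif2s3y were counted in the same library at 25.7 and 27.2 CPM against 55.9 to 72.3 CPM and 53 to 86.1 CPM in the other controls. Uty (15.2 CPM) and Kdm5d (28.6 CPM), also Y-linked, lay within the range of the other libraries, so Xist and Y-linked transcripts were counted side by side in it.

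A second feature of Ctr 72 h replicate 2, also noted after the values were seen, was loss: 54 genes were at least 8-fold lower there than in all other controls, and no other control had such a gene. Ciart, a repressor of the circadian clock, was at 1.02 CPM against 17.6 to 24.6 CPM. Lsm11, a component of the U7 histone-processing particle, was at 1.7 CPM against 20.9 to 101 CPM, and Pcdhb20, a clustered protocadherin, at 0.341 CPM against 10.9 to 17.1 CPM. In all, 2648 genes had no count in this library, more than in Ctr 72 h replicate 3 (2161) despite its larger total.

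The label CA1 was then checked against the other lists. CA1 pyramidal markers (8 of 8 measured) summed to 1394, 1357 and 994 CPM in Ctr 12 h, 1834, 1994 and 1915 CPM in Ctr 36 h and 1365, 1204 and 1046 CPM in Ctr 72 h. Every Ctr 36 h library therefore lay above every other control. Mpped1 contributed most to the sum. The 5 genes of the CA3 list summed to 42.3 to 63.4 CPM in 8 libraries and to 183 CPM in Ctr 12 h replicate 3. In that library 4 of the 5 CA3 genes had their maximum, with Bok, a BCL2 family member, at 64.3 CPM against 7.85 to 10.9 CPM and the adhesion gene Nectin3 at 64.6 CPM against 13.6 to 30 CPM.

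The same Ctr 12 h replicate 3 also led the CA2 list (323 CPM against 162 to 227 CPM, Rgs14 being the most abundant gene) and the dentate granule cell list (183 CPM against 40.4 to 126 CPM). Prox1, the transcription factor of granule cells, stood at 47.1 CPM there and at 2.04 to 29.4 CPM elsewhere. Npy2r, a neuropeptide Y receptor, read 121 CPM in it and 5.74 to 16.6 CPM in the other 8. Higher CA2, CA3 and dentate markers thus came together in 1 library, whose CA1 sum (994 CPM) was the lowest of the 9. The part of neighbouring fields in any result on Ctr 12 h was not tested.

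Ctr 12 h replicate 2 differed in another direction. Fibcd1, a marker of dorsal CA1 pyramidal cells, was at 43.2 CPM there against 272 and 273 CPM in its group partners, and Wfs1, a further CA1 marker that is also expressed in neighbouring cortex, was at 537 CPM against 67.9 to 172 CPM in all other controls. The CA1 sum of this library (1357 CPM) includes that Wfs1 value, so the order of the lowest CA1 sums rests partly on this gene. The subiculum list (Fn1 most abundant) was highest in it at 464 CPM against 146 to 317 CPM, and so were the neocortex list at 356 CPM against 156 to 312 CPM and the striatum and septum list at 149 CPM against 69.3 to 106 CPM. Cplx3, a complexin of deep cortical layer neurons, and Ccn2, a secreted matricellular protein of the same layer, read 40.2 and 64.3 CPM in Ctr 12 h replicate 2, 17.7 and 29.3 CPM in Ctr 72 h replicate 1, and 62.6 CPM each in Ctr 72 h replicate 3. In the other 6 libraries they did not exceed 9.56 and 11.3 CPM. Fibcd1 was also low in Ctr 72 h replicate 3, at 96.6 CPM.

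The glial and vascular lists were among the most even. The astrocyte list (10 genes, Slc1a2 most abundant) had a coefficient of variation of 7.44% over the 9 libraries and ran from 4996 to 6092 CPM. Homeostatic microglia (15 of 16 genes, Csf1r most abundant) varied by 7.59% between 505 and 613 CPM, vascular cells by 11% between 432 and 640 CPM, and GABAergic interneurons by 9.55% between 945 and 1266 CPM. For comparison, 15 common reference genes varied by 5.68%. Lists of general neuronal genes and of oligodendrocyte precursors varied by 13.1% and 12.5%, and oligodendrocytes by 18%, with Ctr 72 h replicate 2 lowest at 2696 CPM against 3231 to 4834 CPM.

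A further 6 cell type lists peaked in Ctr 72 h replicate 2. Blood cell genes summed to 115 CPM in it against 23.5 to 56.6 CPM, led by the haemoglobin gene Hbb-bs, although its group partners (49.4 and 56.6 CPM) also lay above all 6 earlier libraries (at most 35 CPM). In the same library leukocyte genes (5 of 9 in the table, Lyz2 most abundant) summed to 45 CPM against 5.15 to 12.3 CPM. Meninges and fibroblasts reached 380 CPM against 85.1 to 242 CPM, thalamus 191 CPM against 50.3 to 91.4 CPM, and ependyma 21.1 CPM against 3.75 to 13.3 CPM. The choroid plexus sum of 94.4 CPM rested on Aqp1 (82.6 CPM, at most 4.6 CPM elsewhere), while Ttr, the defining transcript of that epithelium, was at only 1.87 CPM in this library and at 1.15 to 11.4 CPM in the others.

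**Figure D2:**
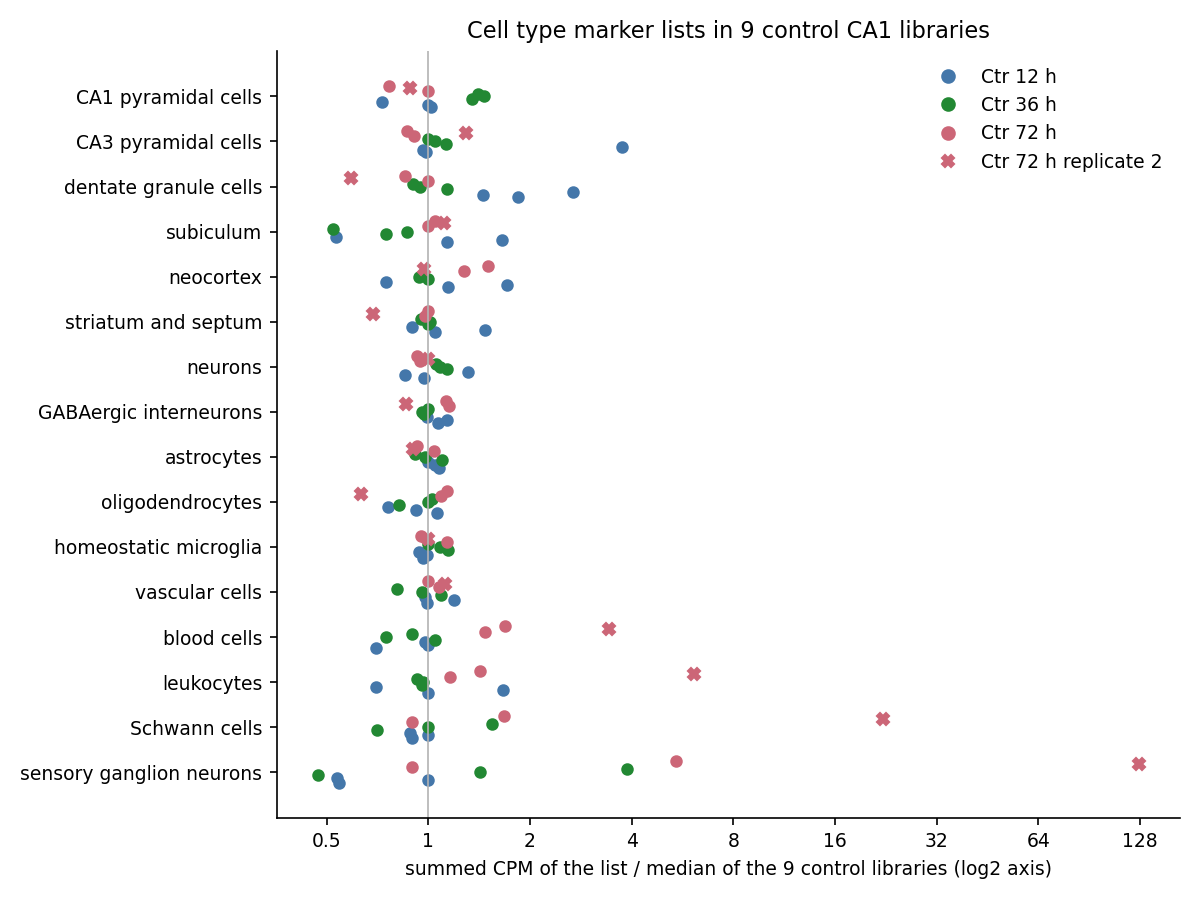
Summed CPM of 16 cell type marker lists in each control library, divided by the median of the 9 libraries (log2 axis), with one point per library coloured by group and a cross for Ctr 72 h replicate 2. Sensory ganglion and Schwann cell lists in Ctr 72 h replicate 2 lay furthest from the median, CA3 and dentate lists were highest in a Ctr 12 h library, and astrocyte, microglia and vascular lists clustered near 1.

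The baseline transcriptome was read on a scale that divides counts by exon length and then by the library's sum (TPM), since only per-length values compare genes. Averaged over 9 libraries, 16353 genes reached 1 TPM, 10490 reached 10 TPM, 1967 reached 100 TPM and 76 reached 1000 TPM. The 20 highest genes took 10.5 to 14.8% of all TPM in Ctr 12 h and Ctr 36 h, and 18.1%, 19.2% and 32.6% in Ctr 72 h. Protein-coding genes took 94.4 to 97.2% of counts, with the lowest share in Ctr 72 h replicate 3.

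Noncoding RNAs headed the ranking and were also among its least even members. Bc1, a short neuronal RNA that is carried into dendrites and represses translation, averaged 66937 ± 60765 TPM (SD, n = 9), followed by the ribosomal RNA copy Rn18s-rs5 at 28978 ± 11546 TPM and by Mir6236 at 14163 ± 7191 TPM. Below them came mainly transcripts of protein-coding genes. The calmodulin genes Calm2 and Calm3 averaged 5626 ± 582 and 3405 ± 493 TPM, the prohormone-processing enzyme Cpe 4751 ± 490 TPM, the postsynaptic and dendritic protein dendrin (Ddn) 3045 ± 856 TPM, and Camk2a, the kinase of synaptic plasticity, 2829 ± 867 TPM. The glial glutamine synthetase Glul (2201 ± 336 TPM) and the ferritin chain Fth1 (2181 ± 186 TPM) closed the top 20. Exon lengths were used in full, with no correction for the length of sequenced fragments. The TPM and ranks of very short genes such as Bc1 (176 bases) and Mir6236 (123 bases) are therefore uncertain, and by CPM Rn18s-rs5 lay above Bc1.

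Bc1 is shown whole because it heads the ranking and carries runs of A inside its sequence, which matter in a library primed or selected on poly(A). It lies at chr7:144468199-144468374 on the plus strand of GRCm39 and is 176 bases long, 40.3% of them A. Capitals mark runs of at least 4 A.
Bc1: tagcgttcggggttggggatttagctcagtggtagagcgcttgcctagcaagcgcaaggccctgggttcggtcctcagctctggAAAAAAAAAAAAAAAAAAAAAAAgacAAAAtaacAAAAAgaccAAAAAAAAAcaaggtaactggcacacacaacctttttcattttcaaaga

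Glutamate receptor levels were dominated by Gria1. It averaged 766 TPM, against 202 TPM for Gria2, the subunit that limits calcium entry, 140 TPM for Gria3 and 28.9 TPM for Gria4. Among NMDA subunits the obligatory Grin1 averaged 169 TPM, Grin2b 113 TPM and Grin2a 93.9 TPM, with Grin2c (36.5 TPM), Grin3a (33.2 TPM) and Grin2d (15.7 TPM) below. Gria1 was among the less even of them, with 655 CPM in Ctr 12 h replicate 2 and 1055 to 1528 CPM in 6 other libraries, and 866 and 804 CPM in Ctr 72 h replicates 2 and 3.

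Among the GABA-A receptor genes, Gabra2 averaged 204 TPM, Gabra3 123 TPM and the extrasynaptic Gabra5 95.8 TPM. Gabra6, the cerebellar granule cell subunit, had no count in any of the 9 libraries, and it was the only listed gene at 0 throughout. The muscarinic receptors, the targets of the blocker that all mice received, were led by Chrm1 (185 TPM), followed by Chrm4 (95.1 TPM), Chrm3 (41.3 TPM), Chrm5 (10.8 TPM) and Chrm2 (9.67 TPM). The channel gene Hcn2 averaged 153 TPM and the Kv4 gene Kcnd2 127 TPM.

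**Figure D3:**
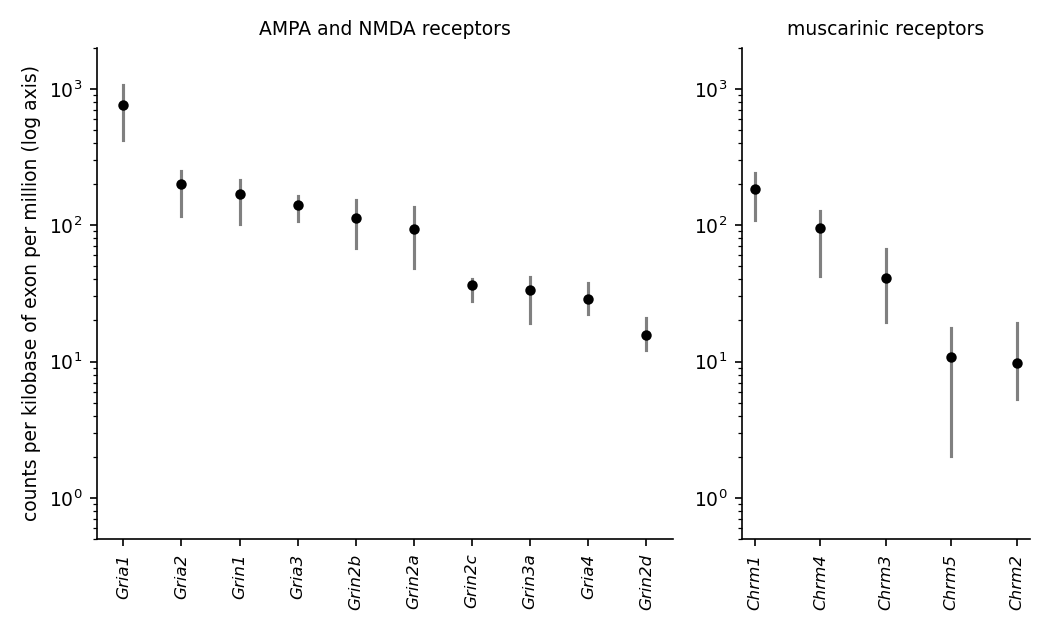
Exon-length-scaled level (TPM as defined above, log axis) of the AMPA and NMDA receptor list and the muscarinic receptor list in the 9 control libraries, with the point at the mean and the line from the lowest to the highest library. Gria1 (766 TPM) and Chrm1 (185 TPM) lead their lists.

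The spread of single genes was smaller once replicate 2 of Ctr 72 h was set aside. The median SD over the 10754 genes whose mean log2 CPM was 3 or more was 0.22 on the log2 scale with all 9 libraries and 0.171 with 8. The highest and lowest library lay within 2-fold of each other for 73.1% of genes with all 9 and for 87.7% without the library, and 446 and 137 genes, respectively, spanned over 4-fold. The most even gene with 9 libraries was the corepressor Ctbp1, at 178 to 188 CPM. Terf2, a telomere-binding protein, stayed between 42.1 and 45.4 CPM, and the ATP synthase subunit Atp5f1b between 1035 and 1119 CPM.

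The least even genes depended on the set of libraries. With all 9 they were led by Sncg (415 CPM in Ctr 72 h replicate 2 against 3.17 to 21.4 CPM), Anxa2, the neurotrophic factor receptor Ret and the sodium channel Scn9a, genes that are abundant in sensory ganglia. Without that library they were Lrrc10b, Cplx3, Ccn2, Npy2r, Bc1 and Fibcd1, whose highest values fell in Ctr 12 h replicate 3 (Lrrc10b, Npy2r), in Ctr 72 h replicate 3 (Cplx3, Bc1), in Ctr 12 h replicate 2 (Ccn2) and in Ctr 36 h (Fibcd1). Within groups, the median SD of log2 CPM was 0.203 in Ctr 12 h, 0.125 in Ctr 36 h and 0.407 in Ctr 72 h, the last falling to 0.224 when computed from replicates 1 and 3. With only genes that had at least 10 counts in every library, the values were 0.149, 0.0867 and 0.265. The within-group values thus depend on the gene set and are not set against the SDs over all controls given above.

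Control and SE groups were also compared in this spread. The mean of the within-group values was 0.245 over the 3 control groups and 0.246 over the 5 SE groups (exact two-sided permutation test over 8 groups, p = 0.964). Ctr 12 h and Ctr 36 h each lay below every SE group (0.219 to 0.283) and Ctr 72 h above them. Without replicate 2 the control mean was 0.184 (exact two-sided permutation test, p = 0.0357). The Ctr 72 h value is then an SD of 2 libraries, which runs lower than one of 3, so no call was read from it. The smallest p this design allows is 0.0179.

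Control times were compared in an edgeR quasi-likelihood fit of all 24 libraries that held 1 estimated factor of unwanted variation (RUVr). That factor was 0.797 in Ctr 72 h replicate 2, -0.383 and -0.374 in its group partners and between -0.102 and 0.136 in the other 21 libraries. Fold changes given with replicate 2 are thus adjusted for a factor in which that library weighs most, which does not remove all of its effect. A gene was called where its Benjamini-Hochberg adjusted p did not exceed 0.05 and its log2FC was 0.66 or more in size. The first comparison, Ctr 36 h against Ctr 12 h, asks whether a day between samplings changed the control transcriptome.

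No gene was called between Ctr 36 h and Ctr 12 h (0.0% of 18153 tested), and limma-voom called none either. DESeq2 called 3, all lower at 36 h. In edgeR 648 genes had an unadjusted p below 0.05, where 908 correspond to no difference in any gene. The smallest adjusted p was 0.504 with all libraries and 0.251 without Ctr 72 h replicate 2, where again 0 genes were called by edgeR and 837 had an unadjusted p below 0.05 (925 correspond to no difference).

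The lowest unadjusted p belonged to Gli1 (ENSMUSG00000025407.8), the transcription factor that reports Hedgehog signalling. It read 10.2, 14.8 and 6.89 CPM in Ctr 12 h and 1.3, 1.36 and 2.71 CPM in Ctr 36 h, with 5.91, 4.43 and 5.62 CPM in Ctr 72 h between them (log2FC of 36 h against 12 h -2.58, SE 0.48, adjusted p = 0.504 by edgeR, and 0.000611 to 1 over the alternatives). Its 12 h and 36 h values did not overlap, but the gene did not pass the test. In the fit without Ctr 72 h replicate 2, Nt5dc2 and Ncald, a neuronal calcium sensor, came next by unadjusted p among the lower genes. Their log2FC in that fit were -0.98 and -1.62.

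Immediate early genes, which neurons switch on within minutes of activity, were higher at 36 h than at 12 h in many libraries without any member being called. For 12 of the 20 listed genes the 3 Ctr 36 h values all lay above the 3 Ctr 12 h values, against 8.13% of all genes tested (8.05% without Ctr 72 h replicate 2), and the median log2FC of the list was 0.62 against -0.01 over all genes. Arc, the synaptic plasticity gene and the most abundant of the list by counts, read 110, 88.2 and 106 CPM at 12 h, 298, 251 and 210 CPM at 36 h and 358, 180 and 195 CPM at 72 h. Its 12 h values lay below all others (log2FC of 36 h against 12 h 1.32, SE 0.51, adjusted p = 1 by edgeR). Fos read 16.3, 22.7 and 12.1 CPM, then 45.4, 34 and 23 CPM, then 67.8, 35.4 and 58.4 CPM. Its 12 h values likewise lay below the others, narrowly so for replicate 2.

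No CA1 marker was called between the same groups. For 5 of 8 the groups did not overlap and 36 h was higher, against 8.13% of all genes: Fibcd1 had a log2FC of 1.41 (SE 0.52) and Man1a one of 0.87 (SE 0.27). Among the 8 dentate genes 3 were lower at 36 h without overlap, against 7.28% of all genes (7.25% without Ctr 72 h replicate 2), and the list median was -1.54. The part that tissue composition had in the immediate early gene values was not tested.

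**Figure D4:**
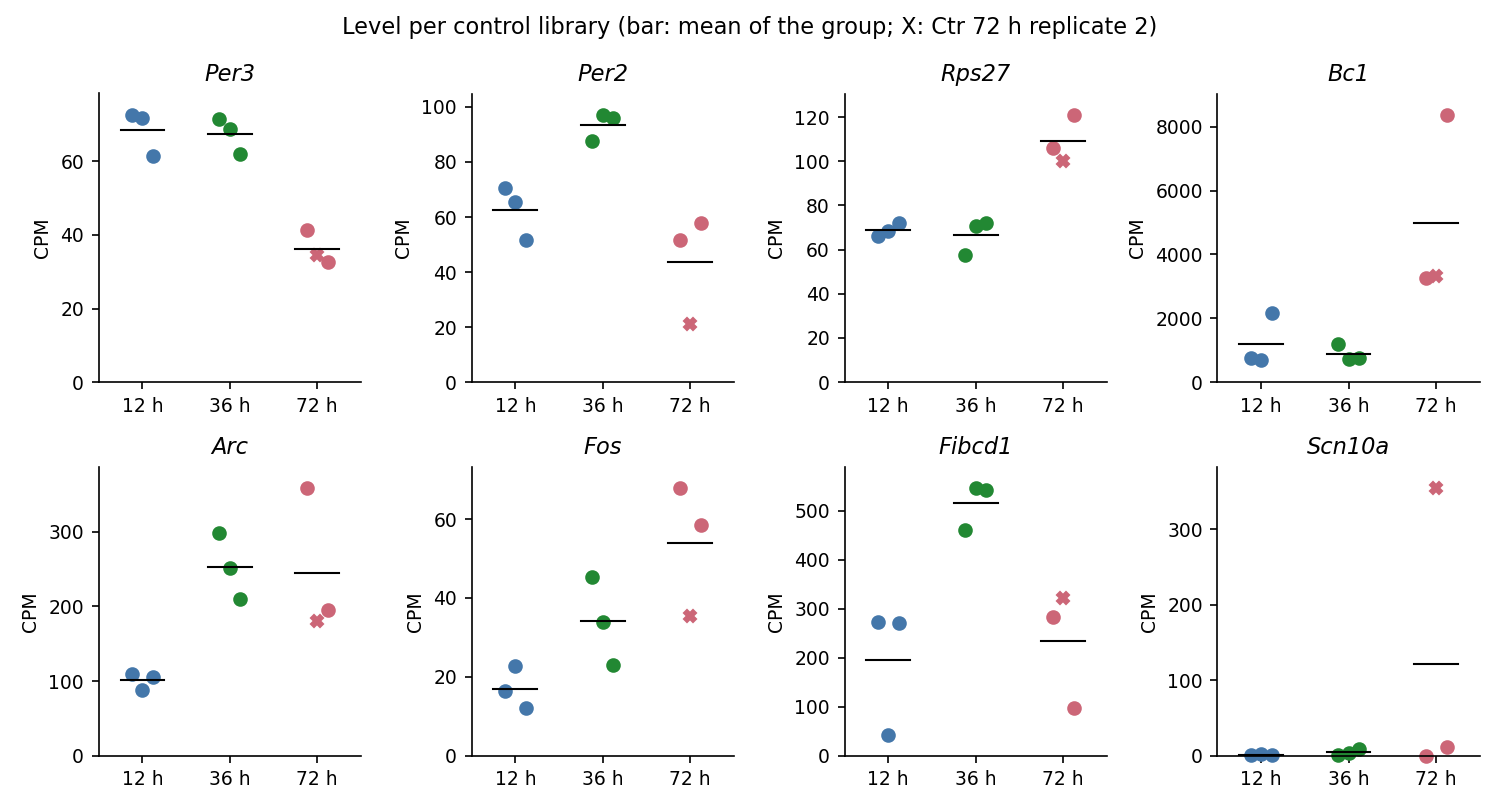
CPM of 8 genes in each control library by group, each axis starting at 0, with points for libraries, a cross for Ctr 72 h replicate 2 and a bar at the group mean. Per3 was lower and Rps27 and Bc1 were higher in all Ctr 72 h libraries than in all others, Arc and Fos were lowest in Ctr 12 h, Fibcd1 was highest in Ctr 36 h, and Scn10a was high in Ctr 72 h replicate 2 alone.

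Comparisons with Ctr 72 h gave calls, most of which were lost when replicate 2 was left out. That step also re-estimated the factor of unwanted variation, so the loss is not that of the library alone. Ctr 72 h against Ctr 36 h called 358 of 18153 genes (1.97%; 129 higher, 229 lower), Ctr 72 h against Ctr 12 h called 169 (0.931%; 59 higher, 110 lower), and Ctr 72 h against the mean of both earlier groups called 525 (2.89%; 206 or 1.13% higher, 319 or 1.76% lower). Of the genes called lower, 22, 4 and 13, respectively, had a higher mean CPM at 72 h, against their fitted direction. No gene called higher had a lower mean CPM. Scaled by library totals alone the splits were 179 higher and 140 lower, 80 and 91, and 264 and 258. Without Ctr 72 h replicate 2 the counts fell to 0, 0 and 18 of 18495 genes (0.0%, 0.0% and 0.0973%), while 2473, 2065 and 2557 genes still had an unadjusted p below 0.05 by edgeR, each above the 925 that correspond to no difference. With control libraries alone in the fit, which held no such factor, Ctr 72 h against the mean of both gave 0 calls of 15998 genes with replicate 2 and 0 of 16615 without it. Without the estimated factor the last comparison called 189 higher and 46 lower, so the balance of directions depended on that factor and on the scaling.

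The 2 pairwise comparisons share the Ctr 72 h libraries and are not independent of the third. Of the 525 genes, 496 kept their sign without replicate 2, 272 had an unadjusted p below 0.05 and 11 were called again. Leaving out Ctr 72 h replicate 1 instead, so that the 2 shallowest libraries stood for the group, raised the 3 counts to 1520, 1188 and 1713. Counts were also sensitive to single libraries of the earlier groups: 72 h against 36 h fell to 6 without Ctr 36 h replicate 1, and 72 h against 12 h fell to 3 without Ctr 12 h replicate 1.

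**Figure D5:**
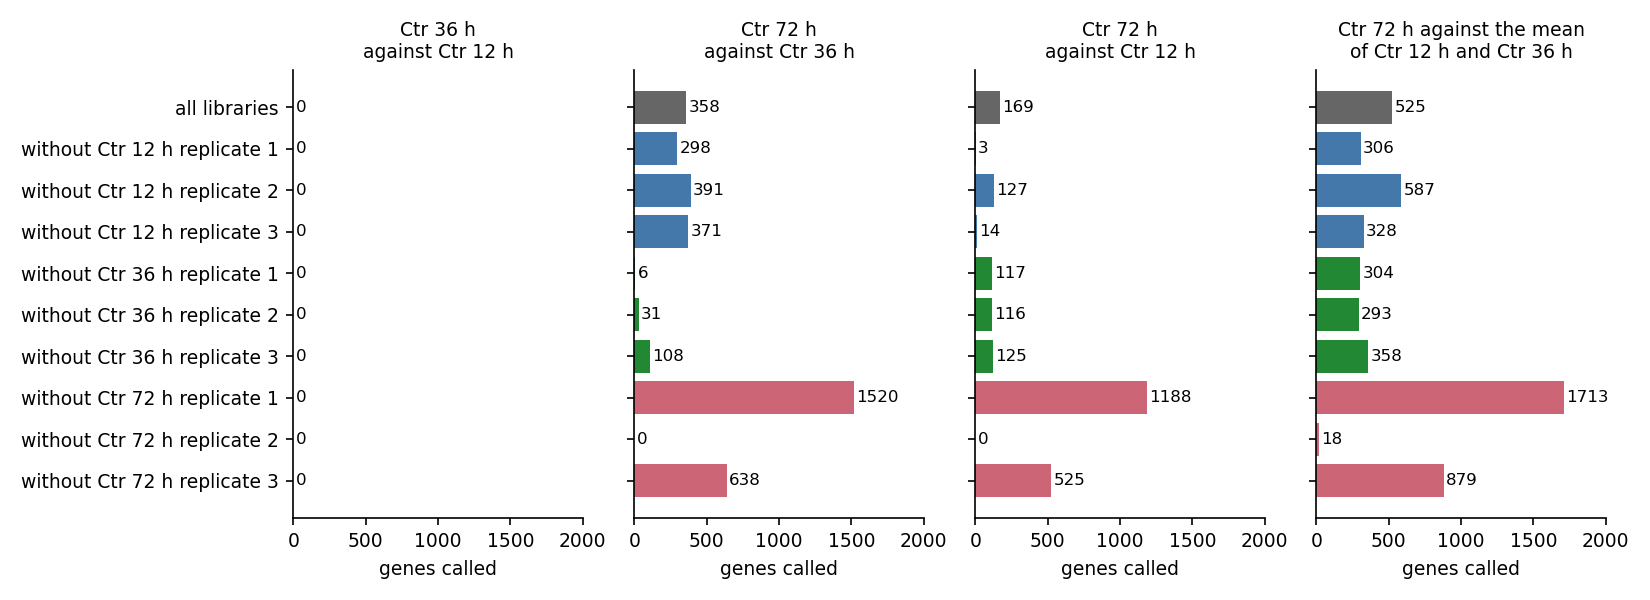
Number of genes called by edgeR (bars from 0) in 4 comparisons between control groups, with all libraries (grey) and with each control library left out, coloured by the group of the library. Leaving out Ctr 72 h replicate 2 gave 0, 0, 0 and 18 calls, leaving out Ctr 72 h replicate 1 gave 0, 1520, 1188 and 1713, and Ctr 36 h against Ctr 12 h had none in any setting shown.

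With replicate 2 included, the 10 largest increases at 72 h among called genes with no overlap between groups and a mean log2 CPM not under 1 were, in order, those of Bc1, the transporter Slco5a1, the endothelial receptor gene Ecscr, Gm42756, the radial glia and astrocyte lipid carrier Fabp7, the calcium-binding S100a6, Skap1, Gm17750, Gm43667 and the myeloid Ly86. S100a6 read 11, 118 and 13.9 CPM at 72 h against 5.38 to 9.36 CPM earlier (log2FC 1.75, SE 0.29, adjusted p = 0.00391 by edgeR, and 0.70 with adjusted p = 0.468 without replicate 2). Fabp7 read 30.8, 111 and 31.1 CPM against 12 to 16.4 CPM, and its log2FC moved from 1.80 (adjusted p = 0.00825 by edgeR) to 1.20 (adjusted p = 0.185). In both genes every 72 h library lay above all earlier ones, and replicate 2 was the highest by far.

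The 10 largest decreases under the same limits were Ism1, Gm35558, ENSMUSG00000100967.2, Eya4, Ikzf5, Gm44421, AA465934, Atp2c2, the Mediator subunit Med18 and Kl. Ism1, Gm35558, ENSMUSG00000100967.2 and Eya4 had no count in replicate 2. Ism1, a secreted angiogenesis inhibitor, read 3.38, 0 and 4.87 CPM against 5.87 to 8.98 CPM. Kl, the klotho gene, was at 8.02, 2.72 and 4.12 CPM against 8.3 to 26.5 CPM (log2FC -1.73, SE 0.49, adjusted p = 0.0427 by edgeR, and -1.37 with adjusted p = 0.264 without replicate 2). Scarce genes were common among the 525: 160 had a mean log2 CPM below 1, and 52 had no count in at least 2 of the 3 Ctr 72 h libraries. For 13 genes called lower the mean CPM was higher at 72 h, Hoxa10 and Hoxc8 among them, so their fitted directions go against their levels. They are not named as decreases here, but the count of 319 lower genes and its share of 1.76% include them.

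Bc1 (ENSMUSG00000115783.2) rose in Ctr 72 h with all libraries in the fit. It read 764, 697 and 2163 CPM at 12 h, 1196, 717 and 751 CPM at 36 h, and 3247, 3328 and 8369 CPM at 72 h. The groups did not overlap, with Ctr 12 h replicate 3 the highest of the earlier libraries (log2FC 2.25, SE 0.57, adjusted p = 0.0302 by edgeR). Without replicate 2 the log2FC was 2.44 (SE 0.61) and the adjusted p 0.0912, so the call was lost although the fold was not. Rn18s-rs5, the ribosomal RNA copy, was also highest in Ctr 72 h replicate 3, at 20666 CPM against 4881 to 13266 CPM, and Mir6236 at 838 CPM against 129 to 405 CPM. Their part in the Bc1 result was not tested.

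The 18 genes called without replicate 2, in the fit of all other 23 libraries, included ribosomal protein genes. None of them was called when control libraries alone were fitted. Among the 14 higher genes (0.0757%) were Rps25, Rps27, Rps12, Rps26 and Rpl39, which encode subunits of the cytosolic ribosome, together with the nucleotide kinase Nme1, the endothelial Ecscr and the haematopoietic signalling genes Sash3 and Arhgap25. Lower were Per3, the noncoding A330023F24Rik, the glycosylation enzyme gene Alg14 and the vesicle trafficking gene Sec22c. Counting ignored strand, so reads of A330023F24Rik cannot be told apart from those of any gene overlapping it. It had the largest decrease of the 4, from 59.3 to 86.2 CPM in the 6 earlier libraries to 31.5, 33 and 21.7 CPM (log2FC -1.29, SE 0.21, adjusted p = 0.00391 by edgeR, and -1.38 with adjusted p = 0.0345 without replicate 2).

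Ribosomal protein genes were examined as a family after these values were seen, so their counts are a description. Rps27 (ENSMUSG00000090733.7) read 66.2, 68.4 and 72 CPM at 12 h, 57.5, 70.5 and 71.9 CPM at 36 h and 106, 100 and 121 CPM at 72 h. All 3 late libraries lay above all 6 earlier ones, replicate 2 included (log2FC 0.69, SE 0.12, adjusted p = 0.00624 by edgeR, and 0.74 with adjusted p = 0.0277 without it). Rps25 read 148, 117 and 187 CPM at 72 h against 88.6 to 109 CPM, and Rpl39 read 75.6, 76.5 and 82.4 CPM against 41.7 to 60.2 CPM. Of the 77 genes of the family, 6 were called higher with replicate 2 and 5 without it (1.13% and 0.0757% of all genes were), none lower, and 45 and 63, respectively, had all 72 h values above all earlier values (3.9% and 8.47% of all genes tested did). The family's median log2FC was 0.44 and 0.45, against -0.08 and -0.02 over all genes. Ctr 72 h replicate 3 had the highest value for 53 of the 77. Without it Rps27, Rps26, Rps12 and Rpl39 were no longer called, with log2FC of 0.61, 0.53, 0.54 and 0.62. The same calls, and that of A330023F24Rik, were also lost with the range of label numbers as a term. Label numbers ran from 167 to 169 in Ctr 72 h and from 109 to 122 in the earlier controls, apart from 163 in Ctr 12 h replicate 3. Many of these genes have processed pseudogene copies, so their counts depend on how shared reads were assigned.

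Transcripts of ribosomal proteins usually start within a stretch of pyrimidines, the TOP motif through which their translation is regulated. The 5 called genes are shown over 30 bases, 15 on each side of the RefSeq start on GRCm38.p6, with the longest run of C or T in capitals.
Rps25: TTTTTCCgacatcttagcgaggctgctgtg
Rps27: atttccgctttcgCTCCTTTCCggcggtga
Rps12: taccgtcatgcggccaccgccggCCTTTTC
Rps26: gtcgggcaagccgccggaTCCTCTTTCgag
Rpl39: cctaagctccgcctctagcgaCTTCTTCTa

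They lie at chr9:44407699-44407728 (plus strand), chr3:90213634-90213663, chr10:23787195-23787224, chr10:128626492-128626521 and chrX:37085208-37085237 (minus strand). A run of at least 8 C or T was present in 3 of the 5, in 38.8% of the 67 ribosomal protein promoters in the RefSeq table and in 12% of all 32851. A match describes these letters only.

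Called clock genes were all lower at 72 h. The core circadian oscillator is a feedback loop in which Clock and Bmal1 drive the Per and Cry genes, whose products repress them. Of the 16 core clock genes, Per2, Per3 and Ciart were called lower at 72 h and none higher (1.76% of all genes were called lower), and without replicate 2 only Per3 was called (0.0216% lower). Per3 (ENSMUSG00000028957.13) read 72.6, 71.7 and 61.4 CPM at 12 h, 71.4, 68.9 and 61.9 CPM at 36 h, and 41.3, 34.6 and 32.6 CPM at 72 h. All 3 late values lay below all 6 earlier ones, a separation that 5.89% of all genes showed in this direction (10.3% without replicate 2) (log2FC -0.90, SE 0.17, adjusted p = 0.0077 by edgeR, and -0.86 with SE 0.14 and adjusted p = 0.0295 without replicate 2). Its call was lost with control libraries alone, with or without replicate 2, and with the range of label numbers as a term.

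Per2 read 70.5, 65.3 and 51.8 CPM, then 87.5, 97.1 and 95.9 CPM, then 51.7, 21.1 and 57.7 CPM, so Ctr 72 h overlapped Ctr 12 h and its call was lost without replicate 2 (log2FC -0.92 with adjusted p = 0.0316 by edgeR, and -0.49 with adjusted p = 0.415). Ciart was low in replicate 2 alone, and its log2FC turned from -1.09 (adjusted p = 0.0342 by edgeR) to 0.21 (adjusted p = 0.744). Cry2 was lower in all 3 late libraries, at 145, 124 and 137 CPM against 167 to 182 CPM, without being called (log2FC -0.34 with adjusted p = 0.108 by edgeR, and -0.29 with 0.27 without replicate 2). Clock and Bmal1, the activating arm, lay at 72.3 to 86.9 CPM and at 23.7 to 37 CPM over the 9 libraries and were not called. Among 7 output genes the transcription factor Tef read 383, 326 and 387 CPM against 472 to 526 CPM, with an adjusted p of 0.0413 by edgeR but a log2FC of -0.45 under the threshold (-0.37 with adjusted p = 0.165 without replicate 2). The hour of day at which tissue was taken is not given in the sources used here. With injections at a like hour, Ctr 12 h and Ctr 36 h would share a clock hour that Ctr 72 h would not. Clock hour and time since injection then cannot be told apart in any comparison with Ctr 72 h, and neither was tested.

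The 250 bases before the RefSeq start of Per3 are shown because it was the only core clock gene called with and without replicate 2 in the fit across all groups. They lie at chr4:151044666-151044915 on GRCm38.p6, on the minus strand, and capitals mark D-boxes, the sites bound by output factors such as Tef and Dbp.
Per3: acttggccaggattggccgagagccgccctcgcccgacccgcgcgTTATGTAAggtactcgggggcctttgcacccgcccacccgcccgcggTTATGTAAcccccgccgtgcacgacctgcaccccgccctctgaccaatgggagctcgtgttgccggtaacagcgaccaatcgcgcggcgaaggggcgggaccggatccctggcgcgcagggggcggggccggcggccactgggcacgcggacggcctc

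The D-box was searched as TTATGTAA on both strands and occurred 2 times here, against 0.819% of 32851 promoters with at least 1 copy in the same table. The palindromic E-box CACGTG, bound by Clock and Bmal1, was not found in this window and was present in 6.02% of promoters. These are matches of letters, not measured sites.

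The other pathway lists held few calls. Of 10 reactive astrocyte genes, Vim, Lcn2, Cd44 and Osmr were called higher at 72 h (1.13% of all genes were, and 0.0757% without replicate 2). Lcn2, a secreted iron-trafficking protein, was scarce at 12 h and 36 h (1 to 10 counts per library, 0.072 to 0.691 CPM) and read 6.67, 4.6 and 2.25 CPM at 72 h (log2FC 4.12, SE 0.60, adjusted p = 0.00228 by edgeR, and 4.17 with adjusted p = 0.0277 without replicate 2). It was the only one of the 4 still called, and Gfap, the most abundant gene of the list, read 290, 256 and 217 CPM at 72 h against 245 to 309 CPM. Vim stood at 189 CPM, Cd44 at 68.5 CPM and Osmr at 51.9 CPM in replicate 2, against at most 56.6, 7.49 and 9.65 CPM in the other 8 controls, and without it their adjusted p values were 0.823, 0.535 and 0.986.

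Among 13 glucocorticoid-responsive genes Zbtb16, a zinc finger repressor, was called lower (1.76% of all genes were), at 57.9, 63.2 and 51.7 CPM against 69.3 to 118 CPM (log2FC -0.77, SE 0.21, adjusted p = 0.0381 by edgeR, and -0.83 with adjusted p = 0.0912 without replicate 2). Hif3a and the lipid droplet gene Plin4, other members, had log2FC of -1.48 and -2.18 with adjusted p of 0.0886 and 0.0935 by edgeR, and of -1.36 and -1.73 with adjusted p of 0.323 and 0.404 without replicate 2. None of 10 heat shock and cold response genes, 10 interferon response genes, 6 nuclear long noncoding RNAs or 15 reference genes was called in this comparison. The interferon sum was nonetheless highest in replicate 2, at 54.8 CPM against 23.2 to 34.5 CPM.

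Receptor and channel lists held 2 calls, both lower (1.76% of all genes were called lower, and 0.0216% without replicate 2). Of 13 tested GABA-A receptor genes only Gabrb2 was called, at 29.6, 16.9 and 24 CPM against 33.3 to 46.8 CPM (log2FC -0.87, SE 0.16, adjusted p = 0.00774 by edgeR), and of 7 HCN and Kv4 genes only Kcnd2, at 125, 75.6 and 83.9 CPM against 111 to 191 CPM (log2FC -0.69, SE 0.16, adjusted p = 0.0196). Neither was called without replicate 2 (log2FC -0.65 and -0.53, adjusted p = 0.127 and 0.161 by edgeR). None of 10 AMPA and NMDA receptor genes and none of 5 muscarinic receptor genes was called. Grin1 came closest in significance, with a log2FC of -0.54 under the threshold (adjusted p = 0.012 by edgeR, and -0.44 with 0.0944 without replicate 2), and read 301, 227 and 261 CPM at 72 h against 345 to 413 CPM.

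Cell type lists gave single calls at 72 h: Kl of the choroid plexus list lower, and Hbb-bs of blood, Lyz2 of leukocytes and Pmp22 of Schwann cells higher (1.76% of all genes were called lower and 1.13% higher), none of them called without replicate 2. The lists of CA1, CA2, CA3 and dentate neurons, subiculum, neocortex, thalamus, striatum and septum, ependyma, meninges, vascular cells, microglia, astrocytes, oligodendrocytes and their precursors, neurons, interneurons and sensory ganglion neurons had none with or without it. Without replicate 2, 8 of 11 oligodendrocyte genes were higher in both Ctr 72 h libraries than in all 6 earlier ones (8.47% of all genes were), with a list median log2FC of 0.28 and no call. With replicate 2 this held for 1 of 11 (3.9% of all genes), and the list median was 0.0. Of 6 blood genes 4 were higher in all Ctr 72 h libraries with replicate 2 and 4 without it, with list medians of 1.12 and 0.80.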

How the data were processed

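RNA-seq counts per gene of 24 libraries were analysed as deposited. According to the study's methods, the authors microdissected CA1, selected polyadenylated RNA, made TruSeq libraries, sequenced them in pairs and counted read pairs per gene without regard to strand. The submitters' processing notes name Trim Galore 0.6.6, STAR 2.7.8a, SAMtools 1.10, HTSeq 0.13.5 and GRCm39. Library totals of the 9 controls lay between 2663936 and 27648010, which makes the shallowest library the least precise for scarce genes.

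Groups came from the treatment and time labels. The counts were fitted in R 4.3.3 with edgeR 4.0.16: TMM scaling, filterByExpr (18153 genes kept), terms for 8 groups and 1 RUVr factor estimated from residuals, quasi-likelihood tests and Benjamini-Hochberg adjustment over all genes. CPM were computed from TMM-scaled totals, with a prior count of 2 for log2 CPM. Alternatives were DESeq2 1.42.0, limma-voom (limma 3.58.1), other scalings, filters, terms and depths, control libraries alone, and each control left out. The fitting code was first tested on simulated data.

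Genes named were the 10 largest called increases and decreases per comparison whose mean log2 CPM was 1 or more and whose groups did not overlap, the same without Ctr 72 h replicate 2 (or the 5 lowest p per direction where fewer than 5 were called), the 20 highest per-length genes, the 10 most and least even genes, members of 22 cell type lists and 14 pathway lists, the most abundant gene of each list and genes at 0, and genes 8-fold above all other controls in 1 library with at least 20 counts. Ribosomal protein and Hox genes and genes 8-fold lower in 1 library were added after values were seen. Members and lists were chosen with earlier results of these data known. Of 18647 genes, 18552 matched the annotation used for exon lengths. Some genes that these rules name are not reported here. Promoters came from RefSeq (GRCm38.p6).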

Additional observations from a re-analysis of the deposited data

Results flagged for a closer look

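Each of 41 values (principal component scores and list sums) was examined over the 9 controls for a highest or lowest library whose gap to its nearest neighbour, as a share of the whole range, passed Dixon's 95% limit. Chance alone passes about 1 in 20 such groups of normally distributed values, and 13 values passed. The 41 values come from the same 9 libraries and are not independent, so the 13 are not weighed against that rate.

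Ctr 72 h replicate 2 accounted for 9 of them. The gap took 0.961 of the range for sensory ganglion neurons (1790 CPM), 0.955 for Schwann cells (924 CPM), 0.872 for the first component, 0.82 for leukocytes (45 CPM), 0.754 for reactive astrocytes (716 CPM), 0.708 for thalamus (191 CPM), 0.668 for choroid plexus (94.4 CPM), 0.643 for interferon response (54.8 CPM) and 0.637 for blood cells (115 CPM). All of these were the highest value of the 9.

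Ctr 12 h replicate 3 was highest for CA3 pyramidal cells (183 CPM, gap 0.85 of the range) and CA2 pyramidal cells (323 CPM, 0.595). Ctr 12 h replicate 2 was highest for striatum and septum (149 CPM, 0.54). Ctr 72 h replicate 3 was highest on the second component (0.884).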

How the results depend on the processing

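For Ctr 36 h against Ctr 12 h, Ctr 72 h against Ctr 36 h, Ctr 72 h against Ctr 12 h and Ctr 72 h against the mean of both, the counts of calls were 0, 358, 169 and 525. DESeq2 gave 3, 530, 370 and 674. The last 3 comparisons gave 42, 10 and 235 without the RUVr factor, 8, 1 and 59 with limma-voom, 224, 89 and 265 with at least 10 counts in every library, 81, 6 and 177 with counts thinned to the smallest total, and 0, 0 and 0 with control libraries only (0, 4 and 0 when Ctr 72 h replicate 2 was also left out). The second and the last gave 221 and 248 with the range of label numbers as a term, and 601 and 982 with no fold threshold. Leaving out each control in turn gave 0 to 0, 0 to 1520, 0 to 1188 and 18 to 1713. With the replicate block the counts were 0, 400, 232 and 553, and same-numbered libraries correlated at -0.076 to 0.119, so the numbers were not taken to pair libraries. The causes were not tested. The spread difference between control and SE groups was -0.00123 with all libraries (exact two-sided permutation test, p = 0.964, and 0.714 to 0.964 over the other settings with all libraries). Without Ctr 72 h replicate 2 it was -0.062 (exact two-sided permutation test, p = 0.0357), but that sets an SD of 2 libraries against SDs of 3, so no call was read from it. Over 123 pairs of a named gene and a comparison, 758 settings lost a call and 27 gained one. The log2FC changed sign in Ciart and Osmr alone, at 72 h against the mean of both: 0.21 and -0.03 without Ctr 72 h replicate 2, and 0.22 and -0.08 with control libraries only and that library left out. With each control left out in turn, Ciart ran from -1.87 to 0.21 and Osmr from -0.03 to 1.46. Ctr 72 h rests on its 2 shallowest libraries plus 1, which limits scarce genes most.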
